A study of Drosophila melanogaster with 12 samples.

Results

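The genes described here are 10 Polycomb and Trithorax group genes of Drosophila melanogaster, which include Trl, the gene of GAGA factor. They were ph-p, ph-d, Psc, Su(z)2, Pc, E(z), pho, Trl, trx and ash1. They were chosen by gene function and not by any measured value, though earlier results of these data were known. All 10 were found among the 18277 annotated genes considered. To examine where AGO2, the Argonaute protein of RNA interference, lies on chromatin, the study performed chromatin immunoprecipitation followed by sequencing (ChIP-seq) in Kc167 cells, an embryonic fly cell line labelled female. The 12 libraries comprised 2 AGO2 ChIPs and 2 RNA polymerase II (Pol II) ChIPs from mock-treated cells, 2 AGO2 ChIPs from cells treated with double-stranded RNA against LaminB, a protein of the nuclear lamina, and 4 mock and 2 LaminB knockdown inputs. Mock cells went through the same nucleofection without double-stranded RNA. The antibody against AGO2 is named in the labels by its source, A. Mueller, and that against Pol II is 8WG16.

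The authors pooled replicates before the final peak call, so each condition was 1 list of intervals: 4201 AGO2 peaks in mock cells, 761 AGO2 peaks after LaminB knockdown and 5905 Pol II domains in mock cells. No value below therefore has a replicate error, no test between conditions could be made, and read depth is unknown. The length of each AGO2 list was set by its own reproducibility cutoff, so a peak missing from the shorter list is unlisted and has not been shown to be lost. As a check on the cell type, 7 of 9 hemocyte markers, all but NimC1 and He, carried Pol II at a transcription start site (TSS). So did 1 of 5 neuron (elav), 1 of 5 muscle (wupA) and 1 of 5 germline markers (aub), where 37.1% of all genes did.

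Polycomb group proteins keep developmental genes silent through complexes that bind and modify chromatin. The products of ph-p, ph-d, Psc or Su(z)2, and Pc assemble into Polycomb repressive complex 1 (PRC1), whereas E(z) is the histone methyltransferase of Polycomb repressive complex 2 (PRC2). DNA-binding proteins such as Pho and GAGA factor act at Polycomb response elements, and Trithorax group proteins such as Trx and Ash1 keep active genes active. GAGA factor binds runs of alternating G and A.

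Some of the DNA under the AGO2 peaks is printed first, because 2 features of it bear on the results. The ph genes are copies with long similar stretches, and the GAGA motif lies at some summits, among them summits of Trl, trx and ph. Each line is the 101 bp centred on the summit of a peak, from the RefSeq genome of assembly dm6, plus strand, 5′ to 3′. Capitals mark the motif GAGAG and its reverse complement CTCTC, overlapping matches included. The first pair are the LaminB knockdown summits in front of ph-d and ph-p, where the shared stretches of the copies can be read across the lines. The next 3 are mock summits of Trl peaks that were also listed after LaminB knockdown, followed by a mock summit of Trl that was not. The last is a summit of trx listed only after LaminB knockdown. These windows are a selection and do not show every case. The mock-only summit of ph-p at rank 2914 has 6 matches, and the mock summit in front of ph-d, at rank 1950, has none.
ph-d upstream, knockdown, X:2123389-2123489: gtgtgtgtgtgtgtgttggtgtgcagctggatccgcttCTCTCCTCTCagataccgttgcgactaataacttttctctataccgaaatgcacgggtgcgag
ph-p promoter, knockdown, X:2136957-2137057: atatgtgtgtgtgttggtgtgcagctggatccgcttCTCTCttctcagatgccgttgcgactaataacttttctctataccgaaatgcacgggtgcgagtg
Trl, mock, rank 811, 3L:14760119-14760219: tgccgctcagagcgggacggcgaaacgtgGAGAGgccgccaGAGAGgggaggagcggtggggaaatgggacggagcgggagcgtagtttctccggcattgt
Trl, mock, rank 400, 3L:14759286-14759386: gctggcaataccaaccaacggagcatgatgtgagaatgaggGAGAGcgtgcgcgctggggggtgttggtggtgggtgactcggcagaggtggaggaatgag
Trl, mock, rank 223, 3L:14756435-14756535: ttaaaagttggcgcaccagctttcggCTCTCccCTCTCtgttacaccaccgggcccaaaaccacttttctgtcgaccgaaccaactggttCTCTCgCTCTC
Trl TSS, mock only, rank 2733, 3L:14758016-14758116: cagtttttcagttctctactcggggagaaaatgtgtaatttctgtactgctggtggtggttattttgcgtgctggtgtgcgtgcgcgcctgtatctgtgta
trx intron, knockdown only, 3R:14283506-14283606: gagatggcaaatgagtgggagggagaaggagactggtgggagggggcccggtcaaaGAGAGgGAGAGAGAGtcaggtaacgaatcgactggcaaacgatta

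AGO2 was listed at or near 7 of the 10 genes in mock cells. A peak covered a TSS of 5 genes (ph-p, ph-d, Psc, Su(z)2 and Trl), against 8.87% of all genes. A peak lay in the body of 7 genes, the same 5 with Pc and trx, against 17.6%. No further gene was added within 10 kb on each side, so that count was also 7, against 55.0%, which leaves little room between the genes and the background. Of 19 annotated TSSs of the 10 genes, mock AGO2 peaks covered 9. Several TSSs of a gene can lie under the same peak. No share over all annotated TSSs was taken for any list, so counts of TSSs have no background here. The TSS count rests on the width of the peaks: with 100 bp on both sides of each summit in place of the peak it was 1. The share of all genes was not taken under that setting, so 8.87% is not its background.

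After LaminB knockdown, an AGO2 peak covered a TSS of 2 genes, Psc and Su(z)2, where 1.72% of all genes had one. A knockdown peak lay in the body of 5 genes (ph-p, Psc, Su(z)2, Trl and trx), where 3.21% did. With 10 kb on each side, ph-d joined them to make 6, where 11.9% did. Knockdown peaks covered 3 of the 19 TSSs. The TSS count was 1 with summits in place of peaks and 5 with TSSs widened by 500 bp. Shares of all genes were not taken under these settings, so 1.72% is not their background. At equal list length, with the 761 highest-ranked mock peaks, mock AGO2 was at a TSS of 3 genes (2.47% of all genes), in the body of 4 (3.73%) and within 10 kb of 4 (14.4%), so the larger mock counts go with the longer list.

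Pol II was at a TSS of 9 genes, all but pho, against 37.1% of all genes, and covered 15 of the 19 TSSs. In the gene body the count was again 9, against 40.8%, and within 10 kb it was 9, against 73.4%. Because active genes carry AGO2 more often, the same AGO2 shares were taken over the 6778 genes with a Pol II domain at a TSS. Among these, a mock AGO2 peak lay at a TSS of 21.9%, in the body of 40.1% and within 10 kb of 79.4%. The 9 genes of the set with Pol II gave 5, 7 and 7. For the knockdown list the shares were 4.18%, 7.33% and 18.2%, and the 9 genes gave 2, 5 and 6. Length also matters, since a long body meets more peaks: among the 2938 protein-coding genes with Pol II at a TSS and at least 3556 bp, the length of E(z), 51.2% had a mock and 14.4% a knockdown AGO2 peak in the body, beside 7 and 5 of the 9 genes. Except for E(z), the 9 genes are 7560 bp or longer, so genes shorter than most of the set are among the 2938. Psc and Su(z)2 are neighbours, as are ph-p and ph-d, so these counts are not over independent genes.

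**Figure D1:**
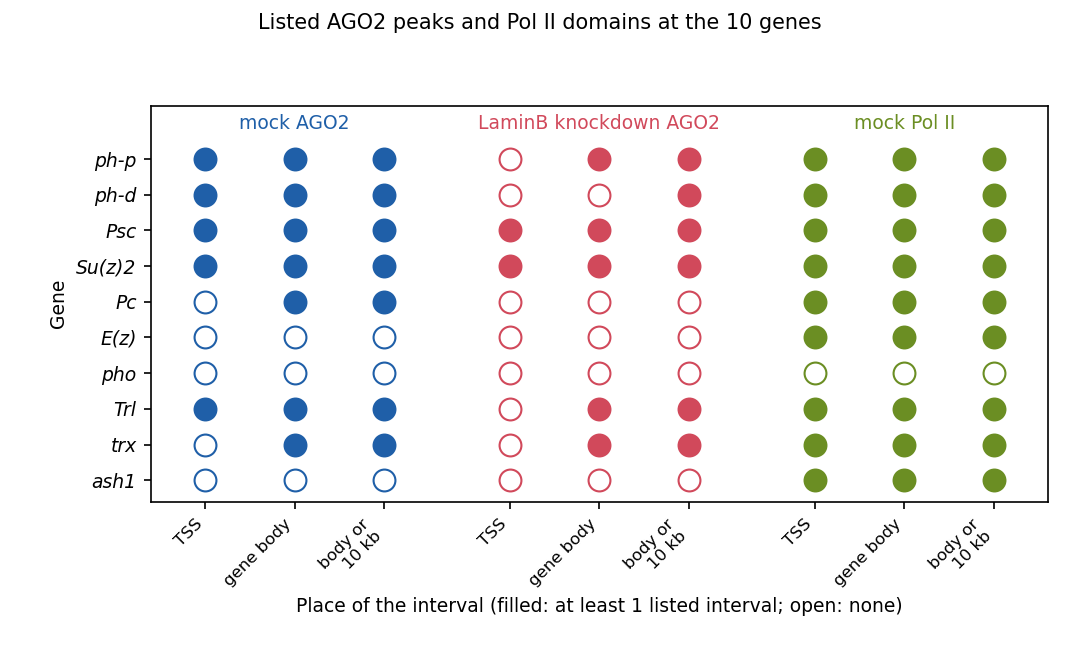
Each row is a gene and each column a place (a TSS, the gene body, or the body with 10 kb on each side) in 1 of the 3 lists; a filled circle marks at least 1 listed interval. Mock AGO2 is at a TSS of 5 genes, knockdown AGO2 at a TSS of 2 and Pol II at a TSS of 9, and E(z), pho and ash1 have no AGO2 in any column.

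Psc encodes a RING finger subunit of PRC1, and Su(z)2, its relative next to it, can stand in for it. Psc (2R:12965997-12980994, minus strand) and Su(z)2 (2R:12996501-13007911, plus strand) are divergent and had the most AGO2 peaks of the set. Each had 7 mock peaks in its body and 10 kb on each side, a number that 1.23% of all genes reached, while the median gene had 1. Each had 4 knockdown peaks, which 0.394% reached, with a median of 0. Here and at Trl, such percentages are over genes of any length, with or without Pol II, and longer regions meet more peaks. The regions share 1 mock peak, so they hold 13 different mock and 8 knockdown peaks.

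The strongest mock peak of the 10 genes lay on the Psc promoter, at 2R:12980200-12981275, with a −log10 p of 104.9, a fold enrichment over input of 7.17 and rank 12 of 4201. It covered both Psc TSSs and coincided with a Pol II domain. In the knockdown list the promoter peak ran from 12980612 to 12981190, with a fold of 2.72 and rank 276 of 761, and its summit was 28 bp from the mock summit. Fold and −log10 p depend on depth, and the ranks are within lists of different length, so values of both lists, here and at the other genes, are given side by side as descriptions and show no change in binding.

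Su(z)2 had a mock peak over both of its TSSs, at 2R:12996204-12997697, with a −log10 p of 70.5, a fold of 5.17 and rank 77. The knockdown peak there, 12996189-12996746, had a fold of 3.05 and rank 232 and covered only the TSS at 12996501. Its summit lay 855 bp from the mock summit, upstream of the gene, whereas the mock summit was in an intron. Among the 13 shared peaks of the 10 genes this was the largest shift, the median being 21 bp, as over all 638 shared mock peaks.

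Between the promoters and beyond the far ends of both genes, AGO2 peaks lay without a Pol II domain. In the stretch between the genes, a mock peak at 12985615-12986064, in an exon of lncRNA:CR44339, had rank 85 and was listed after knockdown at rank 164. A mock peak at 12991681-12992112 had rank 148, and its knockdown counterpart, with a fold of 5.34 and a −log10 p of 58.0, was at rank 23, the highest of the knockdown peaks of the 10 genes. A mock peak at 12990799-12991317 (rank 987) overlapped no knockdown peak, the nearest being 367 bp away. A knockdown peak at 12984405-12985116 (rank 175) overlapped no mock peak, the nearest being 499 bp away.

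Downstream of Su(z)2, the mock peak at 13015586-13016076 was the second strongest of the set (−log10 p of 101.0, fold of 6.36, rank 15) and was at rank 55 after knockdown. Its neighbour at 13014554-13015052 (rank 870) was unlisted after knockdown, while a weak mock peak at 13009229-13009455 (rank 2559) was listed at rank 604 with the same summit. Downstream of Psc, the mock peak at 12955880-12956203 (rank 695) was listed after knockdown at rank 246, and 3 others at ranks 672, 763 and 2792 were unlisted. An intron peak of Su(z)2 at 12998387-12998912 (rank 956) was also unlisted.

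**Figure D2:**
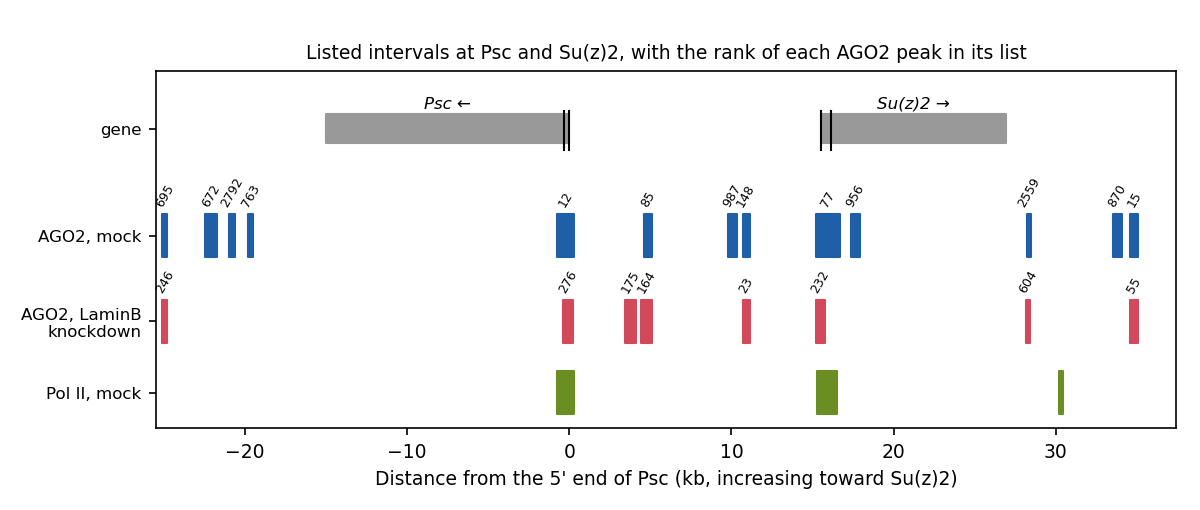
Bars are listed intervals, drawn to scale in kb from the 5′ end of Psc, with the rank of each AGO2 peak in its own list above it; grey bars are genes, black ticks TSSs and arrows the direction of transcription. AGO2 peaks of rank 12 and 77 in mock cells sit on the Pol II domains at the promoters, and peaks of rank 85, 148 and 15 lie away from Pol II.

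The ph locus is a tandem duplication, and both copies encode the Polyhomeotic subunit of PRC1, which can join complexes through its SAM domain. The copies are ph-p (X:2126210-2138371) and ph-d (X:2115727-2123286), both on the minus strand. In the reference they share a block of 3999 bp at 94.4% identity within the genes and one of 519 bp at 91.3% identity (X:2123189-2123693 and X:2136755-2137261). The shorter block holds the summits of both promoter peaks in each list. The knockdown peak of ph-p lies wholly inside it, and the other promoter peaks run past it. Of all 50-base words of the gene body, 30.2% in ph-p and 30.4% in ph-d occur more than once in the genome. The authors removed reads that could not be placed uniquely, so values at these genes are uncertain between the copies.

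ph-p had 4 mock peaks that met its body or 5′ end or lay upstream of it. The strongest, X:2136553-2137318, covered the TSSs at 2136622 and 2136855 together with a Pol II domain, with a −log10 p of 54.9, a fold of 5.03 and rank 206. After knockdown a narrower peak at 2136905-2137243 (rank 240, fold of 3.43) kept the summit to within 1 bp but no longer reached a TSS. The peak over the most upstream TSS, 2138033-2138749 (rank 2914), had no Pol II and was unlisted after knockdown, as were an intron peak of rank 3336 and a peak of rank 1529 at the promoter of the neighbour Pgd.

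ph-d had a mock peak over its upstream TSS at X:2123257-2123803 (fold of 3.42, −log10 p of 22.2, rank 1950), also with Pol II. The knockdown peak, 2123307-2123801 (fold of 3.85, rank 624), ended 21 bp short of the gene, so ph-d counts only within 10 kb in that list. The knockdown summit of ph-d, at 2123439, aligned with position 2137005 of the ph-p copy, 2 bp from the ph-p summit; the mock summits were 78 bp apart by the same alignment. In the mock ph-p and ph-d promoter peaks 3.49% and 5.02% of 50-base words were repeated, and in the knockdown peaks 8.62% and 5.61%. Whether reads of one copy were counted at the other was not tested. A weak mock peak in the coding sequence of ph-d, 2121328-2121705 (rank 4074), just outside the long shared block, was unlisted after knockdown.

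Pc, the chromodomain subunit of PRC1 that reads the methyl mark set by E(z), had a single AGO2 peak. It lay in mock cells at 3L:21316425-21317315 in the coding sequence (fold of 3.52, −log10 p of 25.9, rank 1421) and not on the TSS of the gene (3L:21306138-21318020, minus strand). The Pol II domain at the TSS, 21317665-21318112, did not overlap it. The nearest knockdown AGO2 peak was 64.3 kb from the gene. In Pc, 76.1% of the 50-base words of the gene body occurred more than once in the genome, the highest share of the 10 genes, but none of those under the AGO2 peak did. Because reads without a unique place were removed, peaks in the repeated part of Pc may be missing from both AGO2 lists.

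E(z), the catalytic subunit of PRC2 (3L:10634575-10638130, minus strand), had no AGO2 peak in either list within 10 kb. The nearest mock peak was 21.2 kb and the nearest knockdown peak 26.5 kb away. Pol II lay over both of its TSSs at 10637614-10638649, a domain that also covers the start of the divergent neighbour Cnep1r2. It covered 14.5% of this short gene, so E(z) was a Pol II-bearing gene without listed AGO2, a pattern of calls shared by 1360 genes.

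pho, which encodes a DNA-binding Polycomb protein (4:1172469-1181628, minus strand), was the gene without any interval. The nearest Pol II domain was 121.0 kb away, the nearest mock AGO2 peak 182.6 kb and the nearest knockdown peak 663.7 kb. The whole of chromosome 4 held 36 Pol II domains, 6 mock and 3 knockdown AGO2 peaks, and 24 of its 118 genes had Pol II at a TSS. In pho, 6.76% of 50-base words were repeated. Its pattern, no call of any kind, was that of 4403 genes.

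Trl encodes GAGA factor, a BTB-domain protein that opens chromatin at promoters and response elements. The gene (3L:14747929-14761049, minus strand) held 6 mock peaks, a number reached by 2.37% of all genes, and 3 knockdown peaks, reached by 0.864%. All 9 lay within the gene, where mock AGO2 covered 20.7% of the body, knockdown AGO2 8.77% and Pol II 27.0%, the highest share for each list among the 10 genes. CG42507 overlaps part of Trl, so some intervals cannot be assigned to one of them.

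The 3 strongest mock peaks of Trl were those listed after knockdown, and they lay in introns and not at a TSS. At 14756285-14756684 the mock peak had a fold of 4.94 and rank 223 and the knockdown peak a fold of 4.96 and rank 54. At 14759178-14759502 the mock fold was 4.47 (rank 400) and the knockdown fold 5.10 (rank 68). At 14759987-14760284 the mock fold was 3.55 (rank 811) and the knockdown fold 3.93 (rank 268). Summits moved by 11, 3 and 32 bp, and each of these peaks overlapped a Pol II domain. Their windows, printed above, each hold the GAGA motif.

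The other 3 Trl peaks were weaker and were unlisted after knockdown. The one over a TSS, 14757940-14758233, had a fold of 2.84 and rank 2733 and lay in the Pol II domain at 14757324-14758273; its printed window has no GAGAG. The others were at 14754909-14755779 (rank 3004) and, in coding sequence without Pol II, at 14751279-14751808 (rank 3539). Of the 6, the summits of all but the coding one were in introns.

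**Figure D3:**
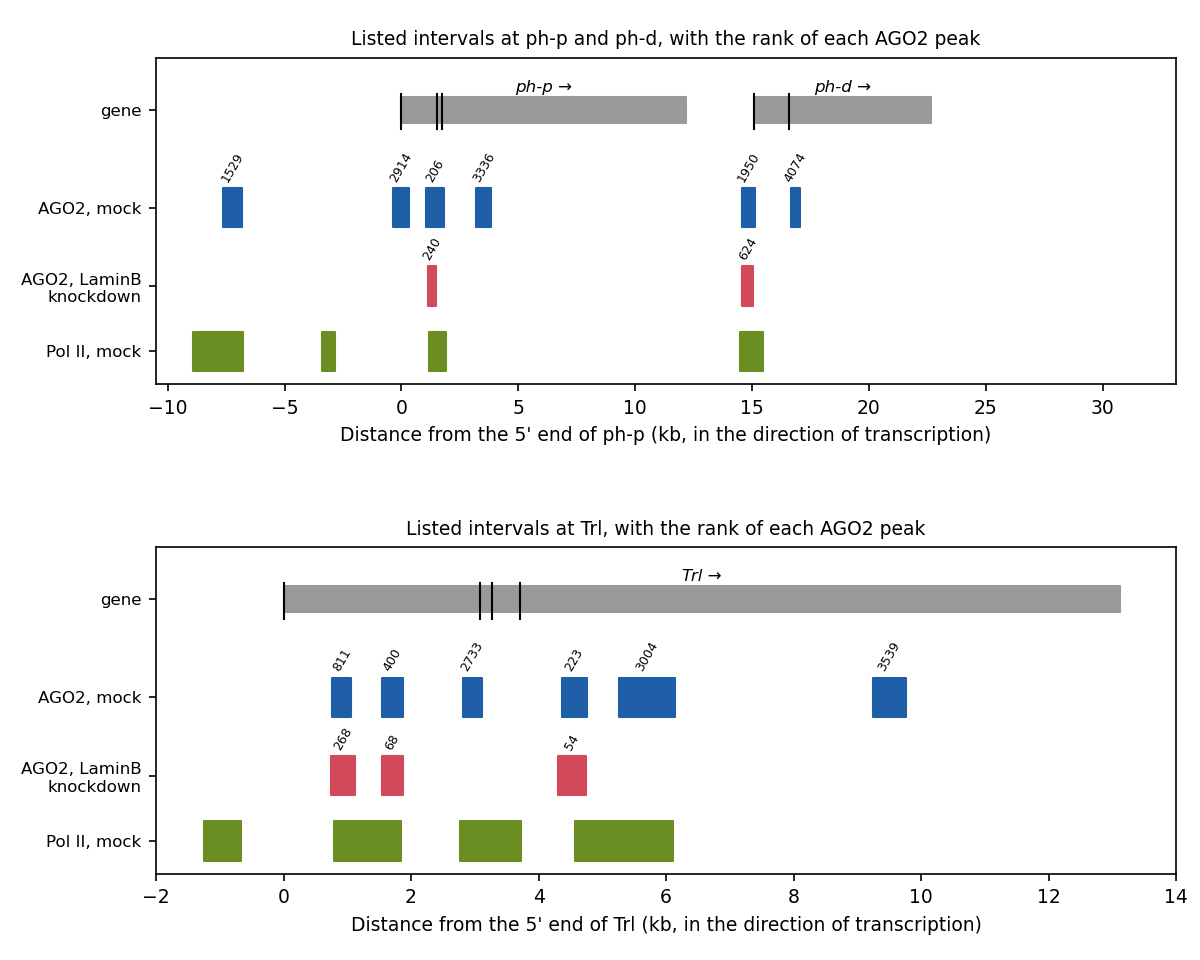
Listed intervals at the ph genes (top) and at Trl (bottom), in kb from the 5′ end of ph-p or Trl in the direction of transcription, with AGO2 ranks above the bars; grey bars are genes and black ticks TSSs. At Trl the mock peaks of rank 223, 400 and 811 have knockdown peaks of rank 54, 68 and 268, and the peak at a TSS, of rank 2733, has none.

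trx encodes a histone methyltransferase of the Trithorax group. The gene (3R:14263358-14286903, minus strand) had 1 mock peak, at 14286382-14286666 in its 5′ UTR (fold of 2.51, −log10 p of 18.5, rank 2915), the lowest fold of the mock peaks of the 10 genes. After knockdown the peak there ran from 14286106 to 14286713 (fold of 2.93, rank 641), with a summit 2 bp away and the same Pol II domain. A further knockdown peak in an intron, 14283362-14283690 (fold of 3.74, rank 728), overlapped no mock peak, the nearest being 2692 bp away. The window of this intron peak carries the longest run of the GAGA motif printed above. With 1 mock and 2 knockdown peaks, trx was the gene with more peaks in the shorter list, though these knockdown peaks were near the bottom of it.

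ash1, the gene of another Trithorax group histone methyltransferase (3L:19590773-19598755, minus strand), had Pol II over its TSS at 19598500-19599460, a domain shared with the divergent Taf6, and no AGO2. The nearest mock peak was 34.1 kb away and the nearest knockdown peak 192.7 kb. In its calls it matched E(z).

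The 10 regions together held 27 mock AGO2 peaks, 15 knockdown peaks and 22 Pol II domains. The −log10 p of the 27 ranged from 15.7 to 104.9 with a median of 30.9, where the whole mock list had a median of 21.4. For the 15 knockdown peaks it ranged from 20.3 to 58.0 with a median of 30.6, where the knockdown list had 25.9. Of the 27 mock peaks 13 overlapped a knockdown peak, where 15.2% of all mock peaks did. Strong peaks are listed again more often: among the 420 highest-ranked mock peaks 55.0% overlapped a knockdown peak and the 8 from the 10 genes all did, while in the rest 10.8% did, and 5 of 19 from the 10 genes. This division by strength was chosen after the values were seen. From the other side, 13 of the 15 knockdown peaks overlapped a mock peak, where 83.8% of the knockdown list did, which is near the background.

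A Pol II domain overlapped 11 of the 27 mock peaks, where 63.0% of all mock peaks had one. For the knockdown list it was 8 of 15, where 56.1% had one, which is near the background. By position, 10 of the 27 mock summits were intergenic, against 13.2% of the mock list, and 4 were in coding sequence, against 35.7%. The intergenic ones were around Psc, Su(z)2 and ph-d. Of the 13 mock peaks that were listed again, 8 overlapped Pol II, where 58.9% of all such mock peaks did, and of the 14 that were not, 3 did, where 63.7% did. None of the 15 knockdown summits lay in coding sequence, against 4.20% of the knockdown list, which is near the background for so few summits.

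**Figure D4:**
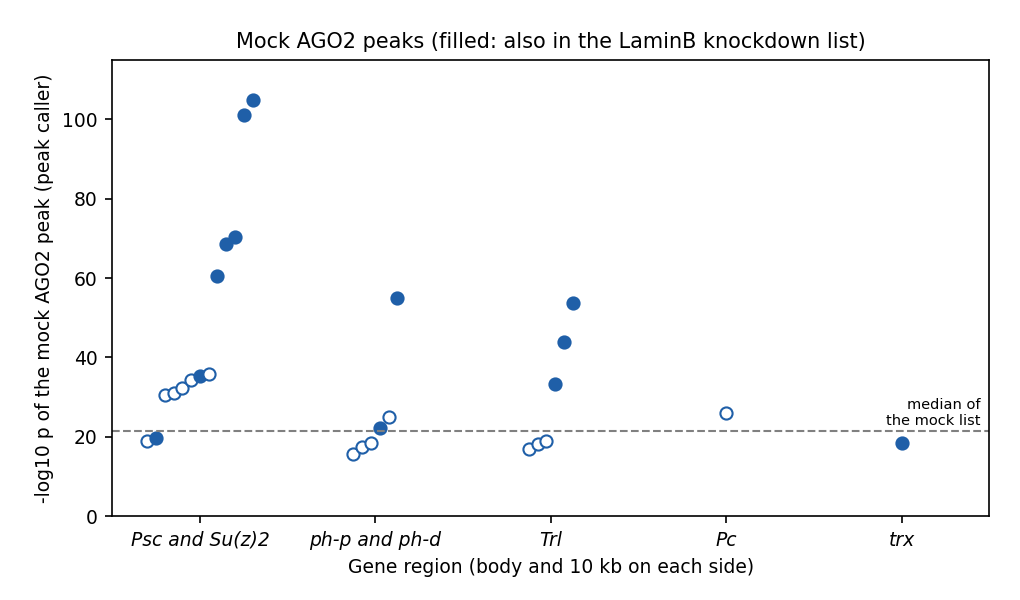
Each point is a mock AGO2 peak of the 10 genes, plotted by its −log10 p and grouped by region; filled points overlap a LaminB knockdown peak, open points do not, and the dashed line is the median of the mock list, 21.4. The 5 strongest points, from 60.4 to 104.9, are at Psc and Su(z)2 and all are filled, but filled points also occur below the line.

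The GAGA motif, GAGAG on either strand within 50 bp of a summit, was searched because Trl is one of the genes, and GCCAT, the core of the Pho site, because pho is. GAGAG lay in 11.5% of all genome windows of 101 bp, at 24.9% of mock summits and at 49.4% of knockdown summits. At the 10 genes it lay at 11 of 27 mock and 13 of 15 knockdown summits. The 15 came from the regions of 6 genes: 4 each at Psc and Su(z)2, 3 at Trl, 2 at trx and 2 at the ph copies. The summits at the ph copies lie in the same duplicated stretch. These counts are thus over few loci and not over independent summits. Among mock summits listed again it was at 8 of 13, where 46.7% of all such summits had it, and among the others at 3 of 14, where 21.0% of all such summits had it, which is the background. At Psc and Su(z)2, the mock summit of rank 15 had 8 matches, but those of rank 85 and 148, also listed again, had none. Their knockdown counterparts had 4 (rank 164) and none (rank 23). GCCAT was in 19.6% of genome windows, 21.1% of mock and 19.4% of knockdown summits, and at the 10 genes at 4 of 27 and 3 of 15. A match describes the letters only and not whether a factor was bound.

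**Figure D5:**
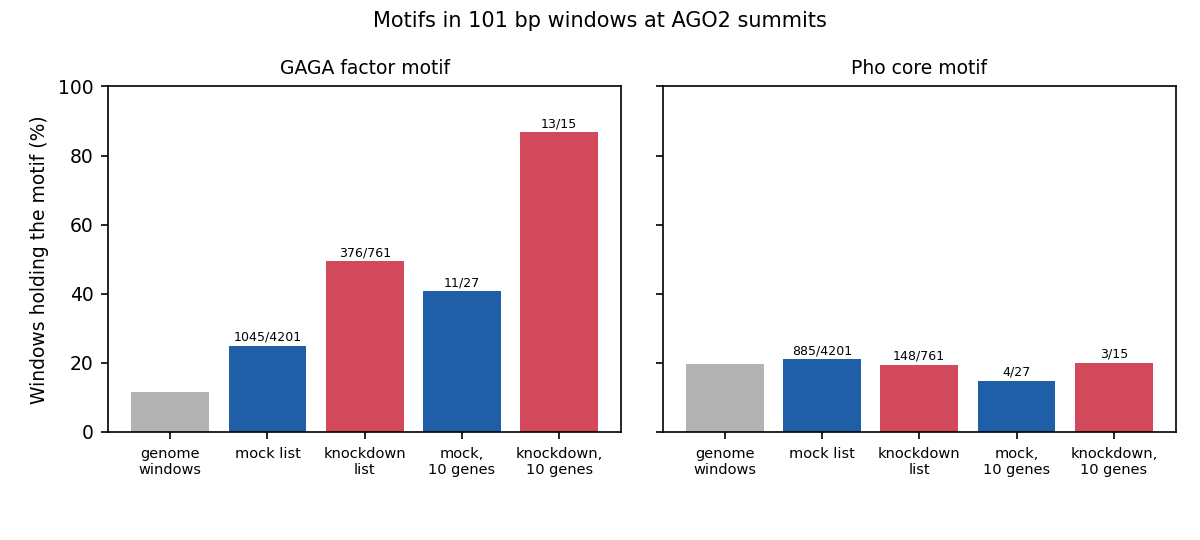
Bars give the percentage of 101 bp windows that hold the motif on either strand: all genome windows, all summits of each AGO2 list, and the summits in the regions of the 10 genes, with counts above the bars of summits. The GAGA motif goes from 11.5% of genome windows to 13 of 15 knockdown summits of the 10 genes, which come from the regions of 6 of them. The Pho core stays near 19.6% in all but the small group of 27 mock summits, where it is at 4.

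The rest of the Polycomb and Trithorax groups was taken from a list of 57 other genes. A mock AGO2 peak lay at a TSS of 14 and in the body of 31, against the 8.87% and 17.6% of all genes given above. A knockdown peak lay at a TSS of 4 and in the body of 10, against 1.72% and 3.21%. Pol II was at a TSS of 53, and the shares over genes with Pol II were 21.9% and 40.1% for the mock list. For the knockdown list they were 4.18% and 7.33%. Over the long genes with Pol II, the body shares were 51.2% (mock) and 14.4% (knockdown). The 57 are not matched to those long genes. They include genes shorter than E(z), such as Sce and esc, and genes without Pol II at a TSS, such as Set1 and Utx. All 10 genes with a knockdown peak in the body were longer than E(z) and had Pol II at a TSS. The counts of 31 and 10 of 57 thus cannot be set directly against the long-gene shares, and a matched comparison was not made. With AGO2 in the body by complex, the 9 partners of PRC1 gave 5 in mock cells and 1 after knockdown, the 7 partners of PRC2 gave 4 and 0, the 7 DNA-binding proteins 6 and 2, the 10 SWI/SNF subunits 3 and 1, the 12 COMPASS and related histone modifiers 5 and 0, and the 12 other Trithorax group genes 8 and 6.

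The other genes with body AGO2 in both lists included partners and relatives of GAGA factor. psq, which encodes another BTB-domain protein that binds GA repeats, had 8 mock and 5 knockdown peaks, with best ranks of 48 and 45. Dsp1, an HMG-box protein gene, had best ranks of 443 and 33, and mod(mdg4), a BTB-domain gene of insulators, 1088 and 761. Among remodellers and their partners, kis had 195 and 58, osa 36 and 647, Mi-2 792 and 400. Kdm2, a histone demethylase gene listed with PRC1, had 69 and 353. The remaining ones were skd of Mediator (805 and 99), fs(1)h, a BET-protein gene (291 and 183), and nej, the acetyltransferase CBP (185 and 615). The best mock peaks among PRC2 partners and COMPASS-related genes were at jing (rank 28) and Ptip (rank 308), neither with a knockdown peak in the body.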

How the data were processed

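Reads had been trimmed by the authors (cutadapt 1.10), aligned to dm6 with Bowtie2 2.2.8, and freed of multimapping reads with SAMtools 1.3.1 and of duplicates with Picard 2.5.0; peaks were called with MACS2 2.1.1.20160309 on pooled replicates against pooled input. AGO2 peaks were cut at a rank set by the irreproducible discovery rate between pseudoreplicates. Pol II domains were broad calls on pooled reads also found in a replicate. The deposited AGO2 lists give the authors' fold enrichment, a linear ratio over background, and the −log10 of their p-value per peak; they have no header, and this reading of the columns was taken from the peak caller's usual order and the range of the values. In turn, the Pol II list holds positions alone. The score and −log10 q columns of the deposited lists were not used. Read depth per sample is unknown, so no interval could be given, and peaks in repeats are under-listed.

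Genes and TSSs came from Ensembl release 115 (build 6.54) on the same assembly, on 7 chromosomes, without transposons. A gene was called by an overlap of at least 1 bp at a TSS, in its body, or in its body and 10 kb on each side; coordinates count from 1. Ranks are by −log10 p within a list. All 10 genes are described in full. Of the 57 others, those named have body AGO2 in both lists or the best mock rank of their list; neighbours are named only under an interval. Copies were aligned with BLAST 2.17.0; Python 3.11.15, numpy 2.4.6, pandas 2.3.3 and matplotlib 3.10.9 did the rest. The overlap code was tested on simulated intervals. The genes, lists and alternatives were chosen with earlier results of these data known. Alternatives changed the overlap, the TSS width, the flank, the transcripts and the strength of the mock list.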

Additional observations from a re-analysis of the deposited data

How the results depend on the processing

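Over 14 counts and 52 alternatives, 46 values stayed within 1.5 times the count reported and 6 did not. When each peak was reduced to 100 bp on both sides of its summit, the genes with AGO2 at a TSS went from 5 to 1 for mock cells and from 2 to 1 after LaminB knockdown. With as many top mock peaks as there are knockdown peaks (761), the mock counts went from 5 to 3 at a TSS, from 7 to 4 in the body and from 7 to 4 within 10 kb. With TSSs widened by 500 bp, the knockdown count went from 2 to 5. Shares of all genes were not taken with summits in place of peaks or with widened TSSs. An overlap of 50% of the shorter interval, flanks of 5 or 20 kb, protein-coding transcripts alone, and mock peaks no weaker than the weakest knockdown peak (a −log10 p of 19.8) moved no count by more than 1.5 times. Some changes reached that limit. Mock peaks of the regions went from 27 to 18 at that strength. Genes with Pol II in the body went from 9 to 6 at 50% overlap, and Pol II domains from 22 to 33 with 20 kb flanks. The TSS counts thus depend on the width of peaks, and the mock counts on the length of the list.

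No paired analysis was possible because each condition had only 1 pooled list; likewise no replicate was left out. Without read counts, a peak unlisted after LaminB knockdown and a shallower knockdown library cannot be told apart.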
